A study of Homo sapiens with 8 samples.

Results

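miR-361 is a microRNA (miRNA) hairpin that gives 2 mature strands, miR-361-5p (hsa-miR-361-5p in the files) and miR-361-3p (hsa-miR-361-3p), and both were followed through 8 small-RNA libraries. They are 2 of the 1818 mature miRNA names that carried reads. They were chosen by name after their read counts, and the ratio of 5p to 3p reads, had been compared in these same libraries, so every level and ratio of miR-361 below is a description. Where a fit over all names or hairpins called miR-361, the call is given beside the share of all names or hairpins called, and it is not independent evidence of a difference. The libraries came from HCT116, a human colorectal carcinoma cell line, in which DICER was supplied as a rescue construct. The rescue was R1003Q DICER, R821H DICER, R1855L DICER or wild-type (WT) DICER, each name giving the replaced residue, its position and the new residue, with 2 libraries per group. The sources used here do not state what DICER the host cells kept, how the rescue was expressed, or whether a line was 1 clone. Nothing in the labels ties the replicates to separate cultures, so the spread between them may be technical.

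DICER is the RNase III enzyme that removes the loop of a precursor hairpin and leaves a short duplex. One strand of the duplex, the guide, is kept by an Argonaute protein and directs it to messenger RNAs by the seed near its 5-prime end, while the other, the passenger, is mostly lost. The ratio of 5p to 3p reads of a hairpin is therefore often read as a measure of which strand is kept. Here it describes only the reads counted under each strand name, and strand retention was not told apart from DICER cutting. miR-361-5p has been studied as a repressor of the growth factor VEGFA and, in colon and gastric cancer cells, of SND1. The hairpin lies in an intron of CHM, the gene of Rab escort protein 1, whose loss causes the eye disease choroideremia.

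The hairpin is shown because it sets out both strands on the molecule that DICER cuts. It is 72 bases long and lies on the minus strand of the X chromosome at chrX:85903636-85903707 (RefSeq, GRCh38.p14). Capitals mark the annotated mature strands, 5p at bases 6 to 27 and 3p at bases 45 to 67, and the 17 bases between them hold the loop.
MIR361 hairpin: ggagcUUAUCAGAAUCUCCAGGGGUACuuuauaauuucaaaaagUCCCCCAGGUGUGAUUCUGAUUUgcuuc

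In GENCODE release 29 (GRCh38) the hairpin lies in intron 9 of the main CHM transcript, which has 15 exons. It stands 7553 bases after exon 9 and 2447 bases before exon 10, on the same strand as CHM (chrX:85861180-86047562), and overlaps no exon of it. RNAfold predicted 16 base pairs between the mature strands and a folding energy of -31.4 kcal/mol for the whole hairpin, with 5 unpaired bases in the 5p strand and 7 in the 3p strand.

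The mature strands are shown with the seed, bases 2 to 8 from the 5-prime end, in capitals.
miR-361-5p: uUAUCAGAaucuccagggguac
miR-361-3p: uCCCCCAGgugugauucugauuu

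The 5p strand has 22 bases and lies at chrX:85903681-85903702, and the 3p strand has 23 bases and lies at chrX:85903641-85903663. Their 5-prime ends differ in composition, with 2 G or C bases among the first 7 of the 5p strand and 5 among the first 7 of the 3p strand. RefSeq gave a sequence for 1603 of the 1818 names, and 0 of the other names among them shared the seed of either strand. Neither strand thus belongs to a seed family among those names.

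Library totals ranged from 462805 reads (R1855L replicate 2) to 4269231 reads (WT replicate 2), and a count of 0 allows 3 reads, between 0.703 and 6.48 CPM (reads per common library total). Of the 8 libraries, 3 were deep (R821H replicate 1, R1855L replicate 1 and WT replicate 2) and 5 shallow, so both R1003Q libraries were shallow. Marker miRNAs of several tissues had reads, so the presence of reads alone did not set the cell type apart. Of the epithelial and colorectal markers 7 of 8 had reads in every library, with a summed 2947 to 3172 CPM in R1003Q, 3050 to 3288 in R821H, 3112 to 3594 in R1855L and 3508 to 3685 in WT. Within that list miR-200b-3p had 974 to 1562 CPM, miR-200c-3p 21.1 to 43.7 CPM, miR-141-3p 13.0 to 42.9 CPM and miR-215-5p 0 to 5 reads. Of the blood markers 6 of 7 had reads in every library, with a summed 591 to 599 CPM in R1003Q, 588 to 624 in R821H, 696 to 1013 in R1855L and 578 to 811 in WT. In that list miR-142-3p had 257 to 449 CPM, miR-451a 115 to 302 CPM, miR-223-3p 2 to 9 reads and miR-155-5p 0 to 1 read. Of the fibroblast and smooth muscle markers 3 of 4 had reads in every library, with a summed 650 to 734 CPM in R1003Q, 634 to 665 in R821H, 642 to 964 in R1855L and 653 to 758 in WT, most of it from miR-145-5p (561 to 890 CPM). Of 5 markers of other tissues 3 had reads in every library, with a summed 749 to 835 CPM in R1003Q, 759 to 912 in R821H, 629 to 1193 in R1855L and 714 to 844 in WT, most of it from miR-9-5p (532 to 1076 CPM). The part of these levels in the miR-361 values was not tested.

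miR-361-3p, the less abundant strand, showed the widest differences between the groups. It had 177 and 92 reads in R1003Q, 656 and 215 in R821H, 106 and 39 in R1855L, and 152 and 622 in WT (replicates 1 and 2). Levels set on a common scale are given as TMM-normalised CPM, which corrects for library total and composition. The 3p level was 158 and 131 CPM in R1003Q, 224 and 256 CPM in R821H, 52.1 and 71.8 CPM in R1855L, and 115 and 162 CPM in WT. Both R1855L libraries lay below the other 6 and both R821H libraries above them, while R1003Q and WT overlapped.

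Group means of miR-361-3p were 145 ± 19.4 CPM in R1003Q, 240 ± 22.9 CPM in R821H, 61.9 ± 13.9 CPM in R1855L and 139 ± 32.8 CPM in WT (SD, n = 2 each). The order from high to low was R821H, R1003Q, WT and R1855L, in which R1003Q and WT did not differ beyond their spread. By rank, miR-361-3p stood between place 177 and place 325 of the names listed in a library, highest in R821H replicate 2 and lowest in R1855L replicate 1.

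miR-361-5p, the more abundant strand in every library, varied less. It had 855 and 544 reads in R1003Q, 2921 and 692 in R821H, 2807 and 550 in R1855L, and 1000 and 3937 in WT. Its level was 764 and 773 CPM in R1003Q, 996 and 824 CPM in R821H, 1380 and 1012 CPM in R1855L, and 760 and 1024 CPM in WT. R1855L replicate 1 was the highest library, whereas R1855L replicate 2 lay below WT replicate 2, so these groups overlapped, and WT also overlapped R1003Q and R821H.

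Group means of miR-361-5p were 769 ± 6.37 CPM in R1003Q, 910 ± 122 CPM in R821H, 1196 ± 260 CPM in R1855L and 892 ± 187 CPM in WT (SD, n = 2 each). The order of these means from high to low was R1855L, R821H, WT and R1003Q. In R821H, R1855L and WT the deep library had the higher 5p level, and R1003Q had no deep library. R821H and WT did not differ beyond their spread, nor did WT and R1003Q.

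**Figure D1:**
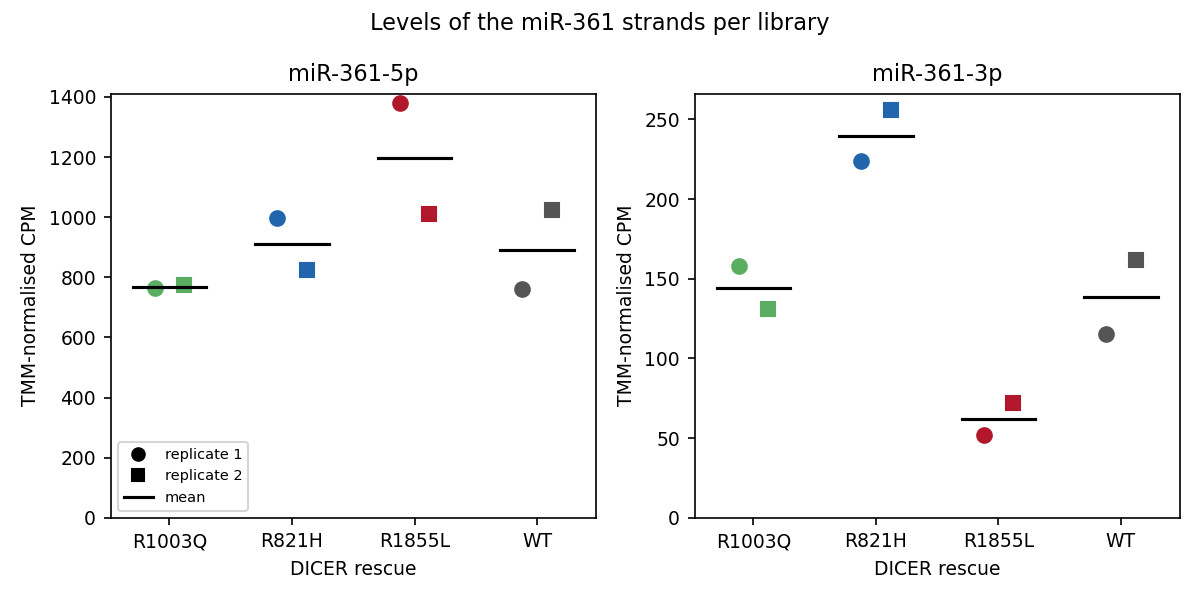
Level of miR-361-5p (left) and miR-361-3p (right) in TMM-normalised CPM (vertical axes, from 0) by DICER rescue, with a circle for replicate 1, a square for replicate 2 and a bar for the mean of 2 libraries. The 3p level is lowest in R1855L (52.1 and 71.8 CPM) and highest in R821H (224 and 256 CPM), while the 5p levels of WT overlap those of every mutant.

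Both strands together made up between 0.0903% of all reads (R1003Q replicate 1) and 0.130% (R1855L replicate 1). Their summed level was 923 and 904 CPM in R1003Q, 1220 and 1080 CPM in R821H, 1432 and 1084 CPM in R1855L, and 875 and 1186 CPM in WT. The sum in WT overlapped that of each mutant.

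The strand share does not depend on how libraries are scaled. The 3p strand took 17.2% (exact Clopper-Pearson 95% interval 14.9 to 19.6) and 14.5% (11.8 to 17.4) of miR-361 reads in R1003Q. In R821H it took 18.3% (17.1 to 19.6) and 23.7% (21.0 to 26.6). In R1855L it took 3.64% (2.99 to 4.38) and 6.62% (4.75 to 8.94), and in WT 13.2% (11.3 to 15.3) and 13.6% (12.7 to 14.7). The R1855L shares lay below both WT shares and their intervals. The R821H shares lay above them, as did the share of R1003Q replicate 1, whereas the interval of R1003Q replicate 2 held both WT values. These intervals treat reads as independent and cover counting error only, not the spread between libraries. No molecular identifiers are given, so copies of the same molecule may have been counted as separate reads.

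**Figure D2:**
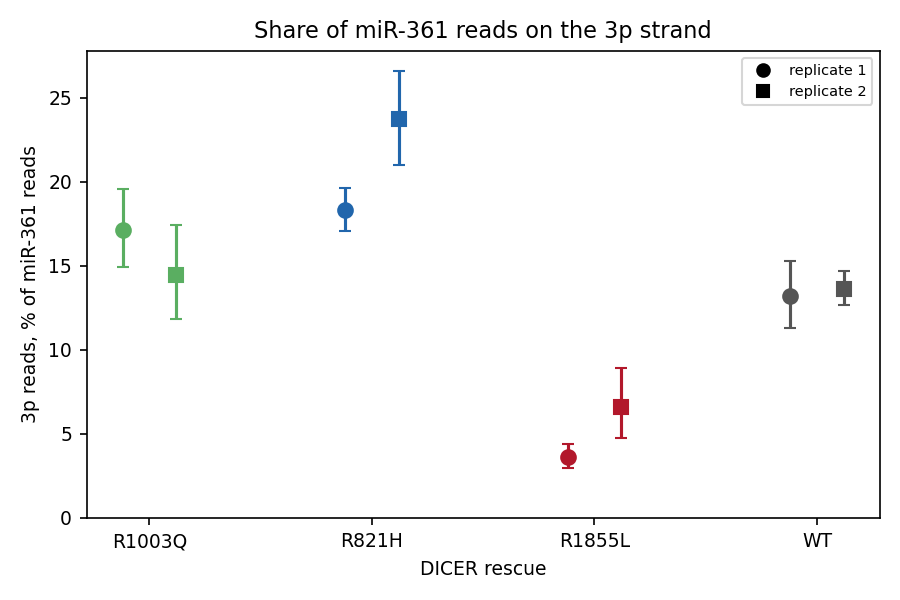
Share of miR-361 reads on the 3p strand (vertical axis, percent) in each library by DICER rescue, with exact 95% intervals for counting error as bars. R1855L lies at 3.64% and 6.62% and R821H at 18.3% and 23.7%, on either side of WT at 13.2% and 13.6%.

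In reads, each 3p read was matched by 4.83 and 5.91 reads of 5p in R1003Q, 4.45 and 3.22 in R821H, 26.5 and 14.1 in R1855L, and 6.58 and 6.33 in WT. On the log2 scale, with 0.5 added to each strand, the ratio of 5p to 3p was 2.27 and 2.56 in R1003Q, 2.15 and 1.68 in R821H, 4.72 and 3.80 in R1855L, and 2.71 and 2.66 in WT. The 5p strand dominated in all 8 libraries, so the dominant strand was the same in every group. The order from high to low was R1855L, WT, R1003Q and R821H. No group overlapped the next in it, although R1003Q replicate 2 came close to WT. Among 174 hairpins the same separation held in 32.2% for R1855L above WT and in 10.3% for R1003Q below WT. It held in 21.8% for R1003Q above R821H. R1003Q had no deep library, and with a depth term in the fit its difference from WT was -0.05 (SE 0.34), beside -0.27 without it.

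The ratio of miR-361 lay on opposite sides of WT in R1855L and R821H. R1855L had a mean log2 ratio of 4.26 ± 0.65 and WT 2.69 ± 0.04 (SD, n = 2 each), a difference of 1.57 toward 5p (SE 0.39), or 2.98-fold. R821H had 1.92 ± 0.33, a difference from WT of -0.77 (SE 0.39), toward 3p. R1003Q had 2.41 ± 0.20, a difference of -0.27 (SE 0.39) that was smaller than its standard error. Across the 174 hairpins with enough reads on both strands, limma called the ratio of miR-361 in R1855L at an adjusted p under 0.05, as it did 7.47% of all hairpins. It called 0% of hairpins in R821H and in R1003Q. At an unadjusted p under 0.05 the shares of hairpins were 1.72% and 4.6%, and miR-361 was in neither. Groups that did not overlap were common, toward 5p in 32.2% of hairpins for R1855L, and toward 3p in 13.2% for R821H and 10.3% for R1003Q.

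The fitted difference was larger for the 3p strand than for the 5p strand in R1855L and in R821H. In R1855L the log2 fold change against WT was -1.19 (SE 0.30) for miR-361-3p and 0.42 (SE 0.27) for miR-361-5p. In R821H it was 0.79 (SE 0.29) for miR-361-3p and 0.03 (SE 0.27) for miR-361-5p. In R1003Q it was 0.06 (SE 0.29) for miR-361-3p and -0.21 (SE 0.27) for miR-361-5p. All 3 comparisons share the same WT libraries.

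Over all 625 names tested, edgeR called 0 of the 2 strands at an adjusted p under 0.05 in each mutant against WT. It called 5.76% of all names in R1855L, 0% in R821H and 0% in R1003Q. At an unadjusted p under 0.05, 1 of the 2 strands, miR-361-3p, passed in R1855L (beside 18.4% of all names) and in R821H (3.2%), and 0 of the 2 in R1003Q (4.96%). DESeq2 called miR-361-3p in R1855L, beside 8.32% of names, and neither strand in R821H (0.16% of names) or R1003Q (0%). The 3p level of R1855L lay below both WT libraries, as for 21.4% of names, and that of R821H above them, as for 15.4% of names.

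For miR-361-3p and for the ratio, the fitted differences of R821H and R1003Q from R1855L were larger than those of any mutant from WT. The level of miR-361-3p was 3.92-fold higher in R821H than in R1855L (log2 1.97, SE 0.31), which edgeR called, as it did 3.84% of names, and DESeq2 called as well, as it did 6.08%. In R1003Q the 3p level was 2.37-fold higher than in R1855L (log2 1.24, SE 0.31). DESeq2 called that difference, beside 6.08% of names, and edgeR did not, beside 3.68%. Between R1003Q and R821H the log2 fold change of miR-361-3p was -0.73 (SE 0.29), with 0% of names called by either tool. At an unadjusted edgeR p under 0.05 miR-361-3p passed there, beside 1.6% of names. For miR-361-5p the log2 fold change was -0.39 (SE 0.27) in R821H against R1855L, -0.64 (SE 0.27) in R1003Q against R1855L and -0.24 (SE 0.27) in R1003Q against R821H, none of them called. Of these, only R1003Q against R1855L passed at an unadjusted edgeR p under 0.05, beside 14.7% of names. Both strands of R1003Q lay below R821H without overlap, as for 16.8% of names. In neither strand did R821H or R1003Q overlap R1855L. The 3p level was above it, as for 20.6% of names in R821H and 24.3% in R1003Q, and the 5p level below it, as for 17.3% and 20.6%.

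The ratio of miR-361 differed by -2.34 (SE 0.39) in R821H against R1855L, a 5.07-fold lower ratio of 5p to 3p, and limma called 6.32% of hairpins there, this ratio included. In R1003Q against R1855L the difference was -1.85 (SE 0.39), 3.60-fold lower, also called, beside 7.47% of hairpins. R1003Q and R821H differed by 0.49 (SE 0.39), with 0% of hairpins called and 1.15% at an unadjusted p under 0.05, miR-361 not among them.

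**Figure D3:**
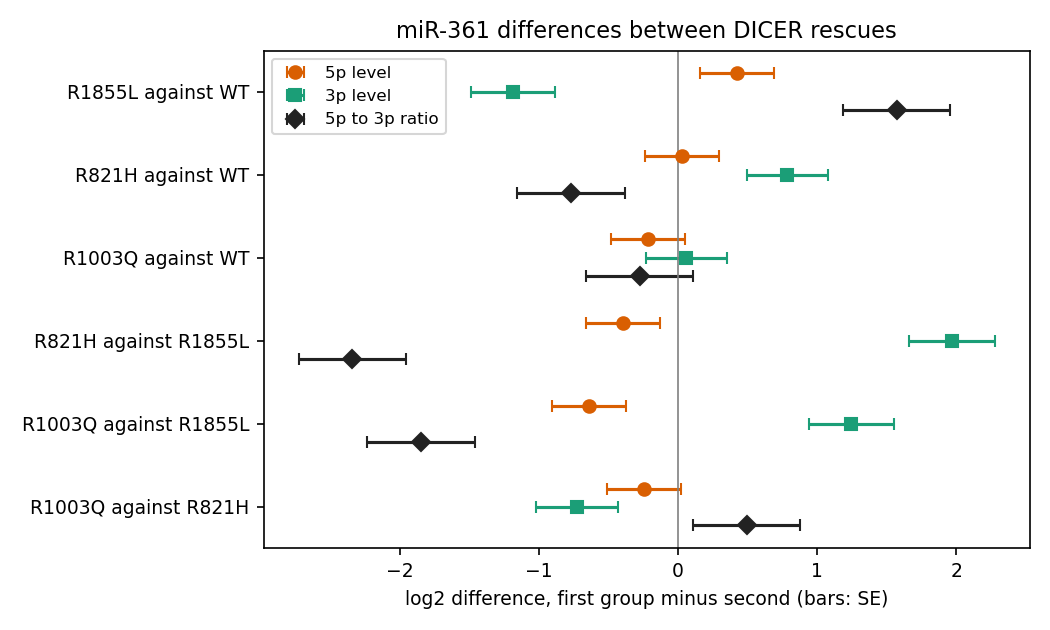
Log2 differences of the miR-361-5p level, the miR-361-3p level and the 5p to 3p ratio (horizontal axis, first group minus second) in each of the 6 comparisons, with standard errors as bars. The ratio lies at 1.57 in R1855L against WT and at -0.77 in R821H against WT, and the 3p level at -1.19 and 0.79.

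Replicates of R1855L stood further apart than those of the other groups, with ratios of 4.72 and 3.80. Without R1855L replicate 1 the difference from WT was 1.11, and limma no longer called it. In the edgeR fit without that library the log2 fold change of miR-361-5p in R1855L against WT was 0.082, against 0.42 with both libraries. The call in R1855L against WT was also lost without either WT, R821H or R1003Q library at a time, at differences of 1.55 to 1.60. The call in R1003Q against R1855L was lost without R1855L replicate 1 (-1.39), and without R1003Q replicate 1 (-1.70) or replicate 2 (-1.99). The call in R821H against R1855L was lost without R821H replicate 1 (-2.58) or replicate 2 (-2.11). A group left with a single library is assumed in these fits to vary like the others. The edgeR call of miR-361-3p in R821H against R1855L was lost without R1855L replicate 1 (1.78) or R821H replicate 2 (1.90).

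Read depth was compared within its own classes, because library composition moved with depth in this series. Between the deep libraries the ratio of miR-361 differed by 2.06 in R1855L against WT, and between the shallow ones by 1.09. In R821H against WT the differences were -0.51 between deep and -1.03 between shallow libraries. R1003Q had no deep library, and its shallow libraries differed from the shallow WT library by -0.30. The 3p level differed by -1.63 (deep) and -0.69 (shallow) in R1855L against WT, and by 0.47 and 1.15 in R821H against WT. The 5p level differed by 0.43 (deep) and 0.41 (shallow) in R1855L against WT, and by -0.04 and 0.12 in R821H against WT. For R1003Q against the shallow WT library the 5p level differed by 0.02. Each value rests on 1 library per group and class, except the 2 of R1003Q. In the ratio and the 3p level R1855L and R821H thus lay on opposite sides of WT within both depth classes. Their lack of overlap with WT already fixes this.

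Set among the 174 hairpins, the difference of miR-361 ranked 17th toward 5p in R1855L against WT, where the median hairpin differed by 0.23. In R821H against WT it ranked 9th toward 3p (median 0.11), and in R1003Q against WT 43rd toward 3p (median 0.06). Against R1855L it ranked 7th toward 3p in R821H and 8th in R1003Q. In levels, miR-361-3p ranked 67th from the lowest of 625 names in R1855L against WT and 20th from the highest in R821H against WT. Its rank was thus nearer the end of the list in R821H, and the size of its difference larger in R1855L.

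**Figure D4:**
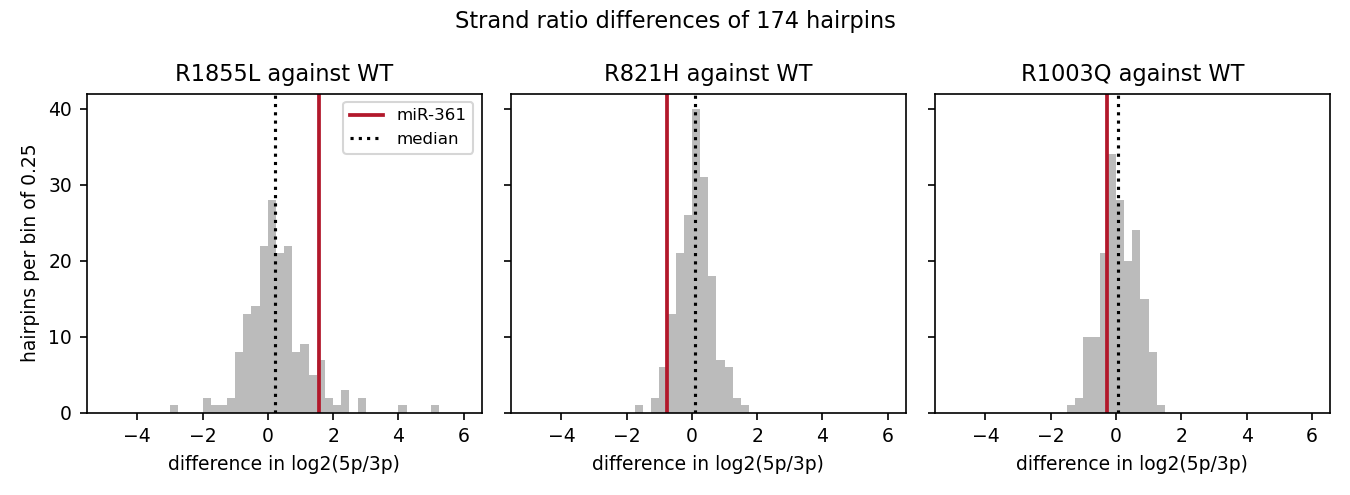
Number of hairpins (vertical axis, bins of 0.25) by their difference in log2 ratio of 5p to 3p reads (horizontal axis) in R1855L, R821H and R1003Q against WT, over 174 hairpins. The solid line marks miR-361, at 1.57, -0.77 and -0.27, and the dotted line the median, at 0.23, 0.11 and 0.06.

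A further 31 hairpins had a mean WT log2 ratio within 1 unit of that of miR-361, and so a similar lead of the 5p strand. This set was chosen after the values were seen, and WT enters both the choice and the differences. Their median difference was 0.02 in R1855L against WT, ranging from -1.32 (miR-589) to 1.73 (miR-584), the only one of the 31 above miR-361. In R821H against WT their median was -0.05, ranging from -1.21 (miR-589, the only one below miR-361) to 0.90 (miR-340). In R1003Q against WT their median was -0.17, and 13 of the 31 lay further toward 3p than miR-361. In R821H against R1855L and in R1003Q against R1855L 0 of the 31 lay further toward 3p than miR-361.

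The hairpins whose log2 ratio followed that of miR-361 most closely over the 8 libraries were miR-339 (Pearson r 0.98), miR-1226 (0.95), miR-324 (0.92), miR-455 (0.88) and miR-3200 (0.87), out of 173. The points share libraries and depth, and the R1855L libraries are the 2 highest of each profile except that of miR-324, where WT replicate 2 lies above R1855L replicate 2. miR-339 also has a leading 5p strand, with log2 ratios of 3.13 and 3.26 in R1003Q, 3.11 and 3.08 in R821H, 3.94 and 3.60 in R1855L, and 3.31 and 3.21 in WT. By mean its groups stood in the same order as those of miR-361, with R1003Q and WT overlapping. Its span was smaller, with 0.51 (SE 0.31) in R1855L and -0.17 (SE 0.31) in R821H against WT.

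miR-324, a hairpin with nearly balanced strands, had log2 ratios of -0.88 and -0.59 in R1003Q, -0.61 and -0.94 in R821H, 1.38 and 0.34 in R1855L, and -0.04 and 0.38 in WT. Its mean differed from WT by -0.91 (SE 0.42) in R1003Q, -0.95 (SE 0.42) in R821H and 0.69 (SE 0.42) in R1855L. miR-455, in which the 3p strand leads in WT, differed by 1.64 (SE 0.34) in R1855L and by 0.17 (SE 0.34) in R821H, where miR-361 had -0.77. miR-1226 is a mirtron, made from a spliced intron without Drosha. Its 3p strand had 4 and 2 reads in R1855L and 31 and 55 in WT, from libraries of unlike totals. Its 5p strand had 44 and 10 reads in R1855L and 40 and 68 in WT. miR-3200 had a 5p strand with 4 reads in R821H replicate 2 and in R1855L replicate 2, and its differences had an SE of 0.97.

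**Figure D5:**
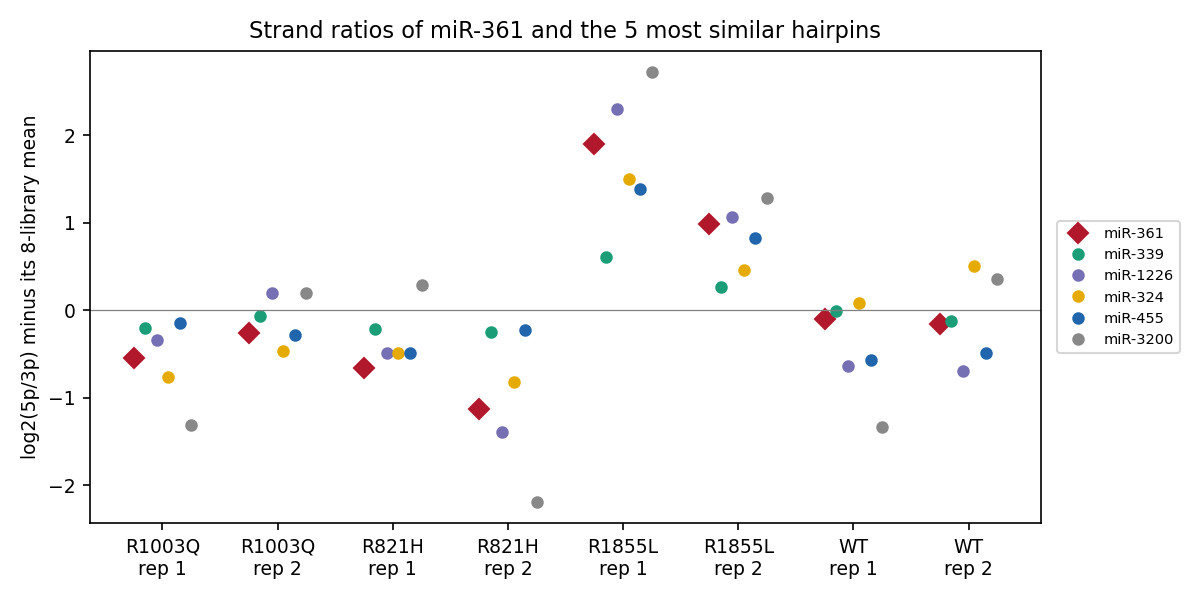
Log2 ratio of 5p to 3p reads minus its mean over the 8 libraries (vertical axis) for miR-361 and the 5 hairpins with the most similar profile, in each library (horizontal axis, by DICER rescue and replicate). All 6 hairpins are above 0 in both R1855L libraries, and miR-361 is below 0 in the other 6 libraries.

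Among 338 names with a mean of at least 50 CPM, the levels most like that of miR-361-3p over the 8 libraries were those of miR-103a-3p (Pearson r of log2 CPM 0.92), miR-222-3p (0.90), miR-1180-3p (0.89), miR-574-5p (0.89) and miR-375 (0.88). The sequences of 4 of them are shown, with the seed in capitals, because the seeds decide whether such names act as a family. No sequence was found under the exact name of miR-375, so its seed was not compared.
miR-103a-3p: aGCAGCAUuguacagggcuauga
miR-222-3p: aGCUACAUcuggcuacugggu
miR-1180-3p: uUUCCGGCucgcgugggugugu
miR-574-5p: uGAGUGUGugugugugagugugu

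These 4 names carry 4 distinct seeds, and none is that of miR-361-3p. miR-103a-3p, a regulator of insulin signalling in mouse, had 4465 and 3543 CPM in R1003Q, 4724 and 5446 CPM in R821H, 2404 and 2278 CPM in R1855L, and 4352 and 5006 CPM in WT. It was low in R1855L as miR-361-3p was, at -0.999 (SE 0.25) against WT, but had 0.12 (SE 0.24) in R821H against 0.79 for miR-361-3p. miR-222-3p, an X-linked repressor of the cell-cycle inhibitor p27, had -2.16 (SE 0.26) in R1855L and 0.34 (SE 0.25) in R821H. miR-375, known for its role in pancreatic islets, had 84.9 and 61.1 CPM in R1003Q, 67.2 and 88.1 CPM in R821H, 11.3 and 9.20 CPM in R1855L, and 64.6 and 55.9 CPM in WT.

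The levels most like that of miR-361-5p were those of miR-20a-3p (r 0.97), miR-548b-5p (0.95), miR-7-1-3p (0.94), miR-28-5p (0.94) and miR-335-5p (0.93). They had log2 fold changes between 0.42 and 0.75 in R1855L against WT (SE 0.27 to 0.56), beside 0.42 for miR-361-5p. Each of them, like miR-361-5p, was also higher in the deep than in the shallow library of R821H, R1855L and WT. The part of depth in this likeness was not tested. No name was among the closest 5 of both strands, and the levels of the strands themselves had an r of -0.57 over the 8 libraries. The log2 ratio of miR-361 had an r of -0.97 with the 3p level and 0.76 with the 5p level, 2 quantities it is built from, and -0.01 with the log2 library total. The 5p level had an r of 0.47 with that total and the 3p level 0.20. Within R821H and R1855L the deep library had the higher ratio, and within WT the shallow one.

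Other miRNAs of the X chromosome, at any distance from miR-361, were set beside it. Of 49 tested, 4 were called lower and 0 higher in R1855L against WT (edgeR, adjusted p under 0.05), which is 8.16% beside 5.76% of all names, with a median log2 fold change of 0.18 beside 0.13. The 4 were miR-222-3p, miR-222-5p (-2.02, SE 0.31), miR-374b-5p (-1.40, SE 0.21) and miR-188-5p (-1.26, SE 0.24). Of these, miR-222-3p and miR-222-5p are strands of the same hairpin. In R821H and R1003Q against WT 0 of the 49 were called by edgeR, with medians of 0.02 and 0.03.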

How the data were processed

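Total RNA was extracted with TRIzol and 100 µg per library went into AQ-seq, which limits the bias of adapter ligation in small-RNA libraries, and was read on a NovaSeq, per the labels' protocols. The authors deposited, for each library, estimated counts per mature miRNA name, not normalised. Fractional reads stand at 19 to 33 names of a library, while both miR-361 strands hold whole numbers. The submitters' processing notes name cutadapt, BWA, bedtools, hg38 and mm10, with no versions or roles. The sources used here do not state the annotation release or the mapping settings. The tables give no read ends, so shifted DICER cuts within a strand were not analysed here.

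A name missing from a library was given 0. After rounding to whole numbers, the estimated counts were fitted with edgeR 4.0.16 under R 4.3.3 (filterByExpr, 625 of 1818 names kept, TMM, robust quasi-likelihood, 1 model with group over all 8 libraries). The threshold for a call was a Benjamini-Hochberg adjusted p under 0.05. The SE is the absolute log2 fold change over the square root of F. Strand ratios, log2((5p + 0.5)/(3p + 0.5)), were fitted with limma 3.58.1 (variance trend on mean log reads, robust) in 174 hairpins. Each had at least 80 reads per strand, summed over all 8 libraries. DESeq2 1.42.0 was an alternative. Both fits were run on simulated data with known changes in R1855L, the outcome of which is not given. The simulated ratio changes were larger than any difference of miR-361 from WT. Folding used RNAfold 2.7.2. Sequences are RefSeq's (GRCh38.p14), matched by name, and the host intron is from GENCODE.

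The names in the text are both members, the 5 names or hairpins with the highest Pearson correlation to each, the marker lists and called miRNAs of the X chromosome. miR-584, miR-589 and miR-340 were named after their values were seen. Members, lists and tests were chosen with earlier results of these data known. Deep and shallow libraries were split at the widest gap between log totals. Alternatives covered normalisation, filters, the model, the libraries included, a replicate block and a depth term.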

Additional observations from a re-analysis of the deposited data

How the results depend on the processing

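Of the 18 miR-361 values, none that was called changed sign under any setting. Uncalled values near 0 did, such as miR-361-5p in R821H against WT (-0.09 to 0.04, and -0.19 to 0.19 with 1 library left out). For miR-361-3p in R1855L against WT (-1.19, not called), edgeR called it with no filter (-1.34), at a mean of at least 50 CPM (-1.26), with a depth term (-1.24) and with a crossed replicate block (-1.20), and DESeq2 called it (-1.22). In R1003Q against R1855L (1.24, not called) it was called at 50 CPM (1.30), by DESeq2 (1.24), with the depth term (1.29) and with the crossed block (1.26). In R821H against R1855L the call was lost with total counts only (1.81) and with only the 4 libraries compared (1.98). The ratio calls were lost with the replicate block and with only the 4 libraries in R1855L against WT (1.57 in both) and in R1003Q against R1855L (-1.85 in both). The cause of these losses and gains was not tested. With the depth term miR-361-5p was at -0.006 in R1003Q against WT, beside -0.21 in the main fit. In R1003Q against R1855L it was at -0.43, beside -0.64.

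Leaving out 1 library at a time, the ratio ranged from 1.11 to 2.03 in R1855L against WT, from -2.80 to -1.88 in R821H against R1855L and from -2.31 to -1.39 in R1003Q against R1855L. The level of miR-361-3p in R821H against R1855L ranged from 1.78 to 2.17. That of miR-361-5p ranged from 0.082 to 0.62 in R1855L against WT, from -0.63 to -0.11 in R821H against R1855L and from -0.87 to -0.35 in R1003Q against R1855L.

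The number of names called in R1855L against WT, 36 at first, was 2 with only the 4 libraries, 14 with total counts, 19 with the replicate block, 52 with DESeq2, 53 with no filter and 177 with the depth term. In R821H and R1003Q against WT it was 0, and 16 and 2 with the depth term, 1 and 0 by DESeq2. Ratio calls in R1855L against WT (13) ranged from 4 to 32 over the settings. The replicate numbers do not pair the samples by the labels, and the block changed no miR-361 call beyond the pair above, with 9 ratios called in R1855L against WT. Same-numbered deviations correlated at -0.69 in R1855L with WT and -0.68 in R821H with WT, so a crossed pairing, chosen after seeing the data, was added, with 57 names and 26 ratios called in R1855L against WT. The lowest count behind a miR-361 ratio was 39 reads, for miR-361-3p in R1855L replicate 2.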
